A study of Mus musculus with 12 samples.

Results

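The HSP90 and HSP110 chaperones, their co-chaperones and the heat shock factors were represented by 10 genes, taken by their symbols from the deposited tables, which list 52858 genes. The 10 were Hsp90aa1, Hsp90ab1, Hsp90b1, Hsph1, Stip1, Ahsa1, Fkbp4, Bag3, Hsf1 and Hsf2, and all 10 passed the filter on low values that left 15240 genes for testing. RNA was sequenced from 12 mouse hearts in 4 groups of 3: Slit2-IR and Slit2-non-IR for the transgenic hearts, and C57-IR with C57-non-IR as their counterparts from the background strain, C57BL/6J. Slit2-Tg mice were heterozygotes that carry a full-length human SLIT2 cDNA driven by a CMV promoter, a promoter that is not restricted to the heart, and were founded from C57 × CBA F1 oocytes. All mice were males aged 3 to 5 months, and every heart was excised and perfused with a blood-free buffer on a Langendorff apparatus, so that no group was an unperfused heart. IR (ischemia-reperfusion) hearts were stabilized for 20 min, had their flow stopped for 20 min and were then reperfused for 40 min, and non-IR hearts were perfused without interruption for 80 min. The labels state the genotype, while IR or non-IR was read from the letters of the sample titles.

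HSP90 proteins are ATP-driven chaperones that hold kinases, steroid receptors and other client proteins in a foldable state. Hsp90aa1 encodes the stress-inducible cytosolic form, Hsp90ab1 the constitutive cytosolic form and Hsp90b1 the form of the endoplasmic reticulum, GRP94. HSP110, encoded by Hsph1, exchanges nucleotide on HSP70, and Stip1, Ahsa1, Fkbp4 and Bag3 encode adaptors that join the HSP70 and HSP90 machines or tune their cycle. Heat shock factor 1, encoded by Hsf1, is held inactive by chaperones in unstressed cells and, once released, binds arrays of inverted GAA units in the promoters of heat shock genes.

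The reads behind the values, recovered from the deposited FPKM (fragments per kilobase of gene, scaled per library), numbered 16601154 to 24841291 on genes per library. Of these, 19.7% to 26.0% were on mitochondrial genes. The scale of each library matched the inverse of its median-of-ratios size factor (0.823 to 1.22) and not its total reads on genes. That factor is the median, over genes, of a library's reads relative to the geometric mean of all libraries. Counts of the members ranged from 200 to 342 reads per library for Hsf2, the lowest, to 21308 to 41170 for Hsp90ab1, the highest. All 7 ventricular cardiomyocyte markers were present (summed FPKM 14432 to 22157), and the summed neutrophil markers reached at most 1.07 FPKM. The 4 atrial markers summed to 1650 FPKM in Slit2-IR replicate 1 and to at most 227 in the other libraries, so called differences of the members and of the named partner genes over both genotypes are also given without that library. Slit2 itself, on the mouse gene, lay between 0.180 and 0.282 FPKM in C57BL/6J libraries and between 0.0847 and 0.813 in the libraries labelled Slit2-Tg, where only Slit2-IR replicate 2 exceeded the C57BL/6J range. The transgene is a human cDNA, and how its reads were mapped is not given, so this row did not check the genotype labels. In bulk tissue, fewer cells of a type and less RNA per cell cannot be told apart.

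Promoter sequences of 300 bases, from 250 before to 50 after the transcription start, were in the RefSeq table (build GRCm38.p6) for 7 of the 10 members. Hsp90aa1, Hsp90ab1 and Hsf1 were not among them. They were searched on both strands for a pair of inverted heat shock units, GAANNTTC or TTCNNGAA, and for 3 such units in a row, GAANNTTCNNGAA or TTCNNGAANNTTC. A run of 3 units contains 2 overlapping pairs. The pair was found in 15.1% of all 32851 promoters in the table, and the run of 3 in 0.603%. Hsph1, Fkbp4 and Bag3 held a pair, and Hsph1 also held the run of 3, which lies 37 to 49 bases after its upstream start on the minus strand of chr5:149636287-149636316. The windows below span 30 bases around each match, with the match in capitals, and are shown because these 3 genes responded so unequally to IR. Positions count from the RefSeq start, for Hsph1 the upstream of 2. The deposited coordinates of Hsph1 reach 149636376, so by them both its matches lie inside the gene. In the Fkbp4 promoter, 0 bases lay upstream of every annotated exon.
Hsph1, run of 3 units, chr5:149636287-149636316, minus strand: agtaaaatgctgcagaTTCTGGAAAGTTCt
Hsph1, pair of units 33 to 26 bases before the start, chr5:149636351-149636380, minus strand: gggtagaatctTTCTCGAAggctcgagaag
Fkbp4, pair of units 151 to 144 bases before the start, chr6:128438789-128438818, minus strand: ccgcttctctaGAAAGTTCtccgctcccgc
Bag3, pair of units 43 to 50 bases after the start, chr7:128523603-128523632, plus strand: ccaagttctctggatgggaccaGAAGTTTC
The pair did not occur in these windows of Hsp90b1, Stip1, Ahsa1 or Hsf2.

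Hsp90b1 differed in its promoter. The endoplasmic reticulum stress element, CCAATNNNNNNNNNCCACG on either strand, was found in 39 of the 32851 promoters (0.119%). The Hsp90b1 promoter held 2 copies, at 212 to 194 bases before the start in the forward and 107 to 89 bases before it in the reverse direction. The stretch upstream of every annotated exon, 185 bases, is shown with the 5-base ends of both copies in capitals.
Hsp90b1, chr10:86705510-86705694, minus strand: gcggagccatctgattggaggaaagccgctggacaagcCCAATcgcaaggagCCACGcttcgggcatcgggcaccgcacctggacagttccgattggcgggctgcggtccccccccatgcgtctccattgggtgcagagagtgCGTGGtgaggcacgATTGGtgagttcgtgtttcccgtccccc
The promoters of Hsph1, Stip1, Ahsa1, Fkbp4, Bag3 and Hsf2 did not hold this element, and those of Hsp90aa1, Hsp90ab1 and Hsf1 were not searched. A match describes letters in the window and was not tested as a binding site.

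Whether IR changed the chaperone transcripts was asked first over both genotypes, with the IR difference averaged over C57BL/6J and Slit2-Tg hearts in one limma fit of log2(FPKM + 1). Hsp90aa1, Hsph1, Bag3, Hsp90b1 and Hsp90ab1 rose after IR, Stip1 and Ahsa1 were higher without passing the adjusted threshold, and Fkbp4, Hsf1 and Hsf2 differed by less. Thus 5 of 10 members passed a Benjamini-Hochberg adjusted p of 0.05 upward, against 2.34% of all tested genes, and 7 of 10 were higher at an unadjusted p under 0.05, against 7.93%. No member, 0 of 10, was lower at that level (7.97% of genes were). The median difference of the 10 members was 0.39 on the log2 scale, while that of all tested genes was 0.00. For 5 members (Hsp90aa1, Hsph1, Bag3, Hsp90ab1 and Stip1) the 6 IR values lay wholly above the 6 non-IR values, which held for 2.23% of tested genes. The plots of the members by library and of the fitted differences show these values.

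**Figure D1:**
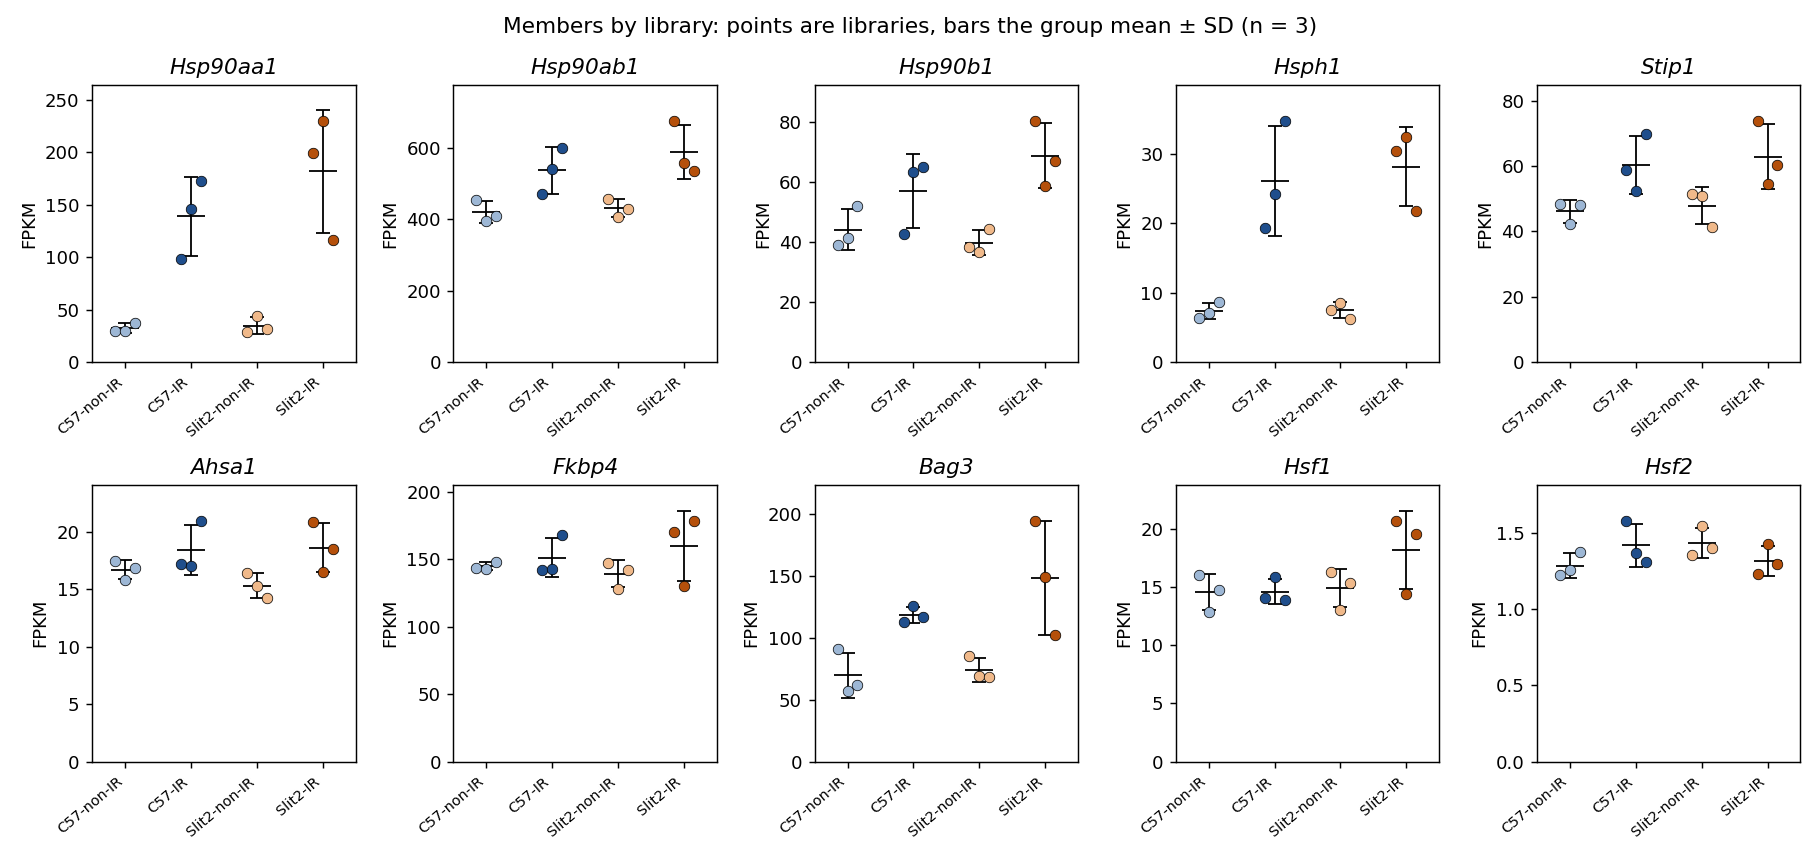
FPKM of each member (vertical axis, linear from 0) in the 12 libraries, by group; points are libraries and bars the group mean ± SD (n = 3). Hsp90aa1 and Hsph1 separate IR from non-IR libraries most widely, while Hsf2 stays between 1.22 and 1.58 FPKM in all of them.

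**Figure D2:**
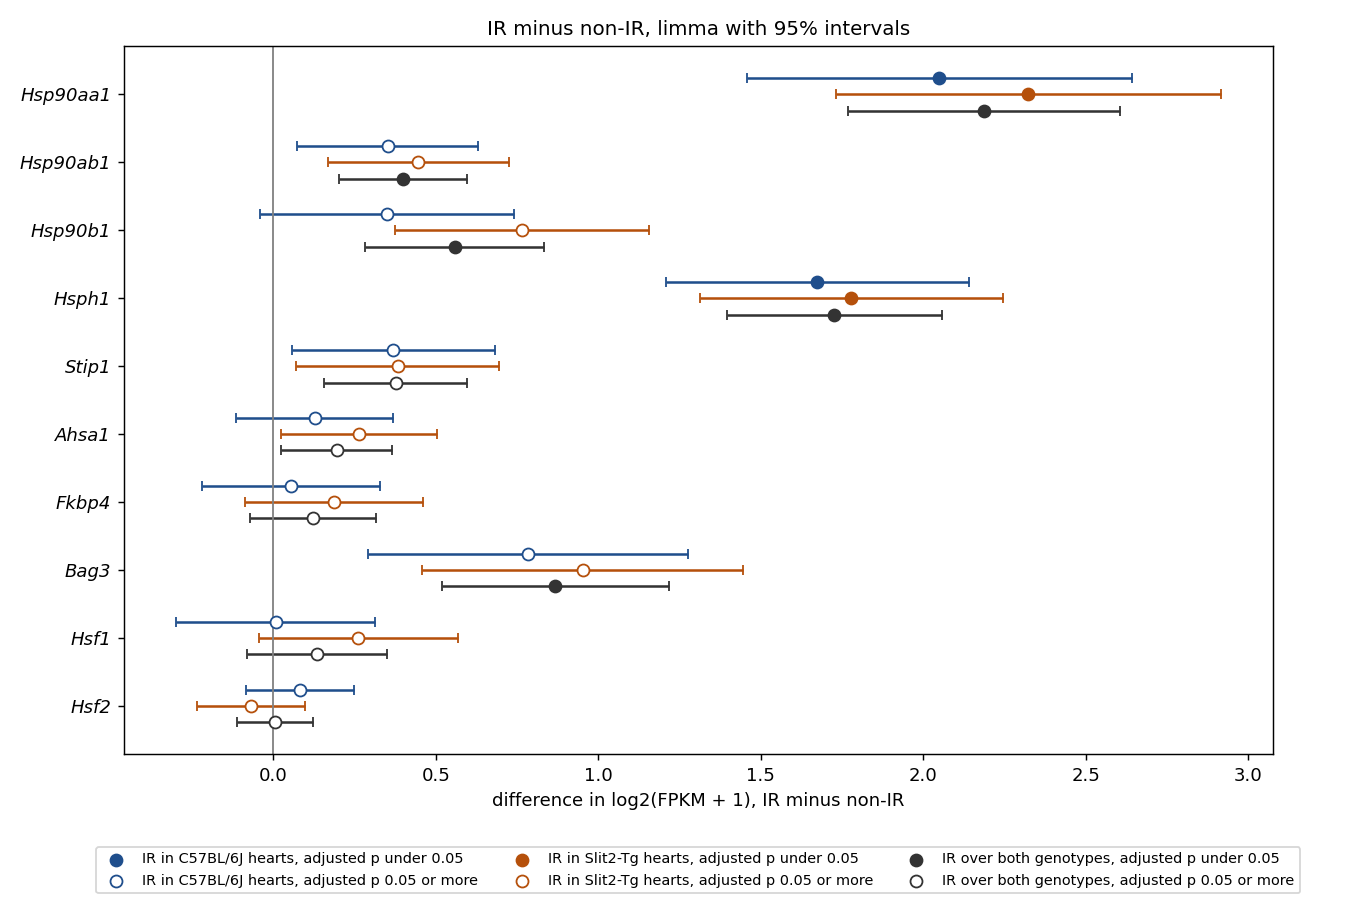
IR minus non-IR difference in log2(FPKM + 1) for each member (horizontal axis), with 95% intervals from limma, in C57BL/6J hearts, in Slit2-Tg hearts and over both; filled points have an adjusted p under 0.05. Hsp90aa1 (2.19 over both) and Hsph1 (1.73) stand to the right of the other 8 members, whose differences over both genotypes run from 0.01 to 0.87.

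Among the HSP90 genes, Hsp90aa1 (ENSMUSG00000021270, chromosome 12 from 110690605 to 110702728, minus strand, GRCm38) changed most. Its FPKM was 29.8, 29.2 and 37.5 in C57-non-IR hearts and 98.5, 146 and 173 in C57-IR hearts. In Slit2-non-IR hearts it was 28.999, 43.6 and 31.3, and in Slit2-IR hearts 199, 230 and 116. Every IR heart thus had more than every non-IR heart of either genotype. The mean rose from 33.4 ± 5.90 to 161 ± 49.9 FPKM (SD, n = 6), 4.81-fold, being 4.33-fold in C57BL/6J and 5.25-fold in Slit2-Tg hearts. The log2 difference over both genotypes was 2.19 (SE 0.19, limma adjusted p = 0.000322), with the eighth-lowest p of all genes tested. Within genotypes it was 2.05 (adjusted p = 0.0143) in C57BL/6J and 2.32 (adjusted p = 0.00756) in Slit2-Tg hearts in the limma fit.

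Hsp90ab1 (ENSMUSG00000023944, chromosome 17 from 45567775 to 45573271, minus strand) was the most abundant member per length in all 12 libraries. It measured 454, 394 and 411 FPKM in C57-non-IR and 470, 541 and 601 in C57-IR hearts. The Slit2-non-IR hearts had 456, 407 and 430 FPKM, and the Slit2-IR hearts 676, 558 and 536. The IR values again lay above all non-IR values, but by a narrow margin, the lowest IR heart standing at 470 and the highest non-IR heart at 456 FPKM. The mean went from 425 ± 25.9 to 564 ± 69.5 FPKM (SD, n = 6), 1.33-fold, a log2 difference of 0.40 (SE 0.09, limma adjusted p = 0.0360). This call held in 8 of 20 alternative settings. It was lost without any single library other than C57-non-IR replicate 1, C57-IR replicate 1 or Slit2-IR replicate 3, with a highest adjusted p of 0.0935 in limma over the alternatives, and without Slit2-IR replicate 1 the difference was 0.35 (limma adjusted p = 0.0738). Within C57BL/6J (0.35) and Slit2-Tg hearts (0.45) the limma adjusted p was 0.381 and 0.161.

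The proportions of both cytosolic forms shifted. Hsp90aa1 made up between 5.97% and 9.68% (median 6.84%) of the summed Hsp90aa1 and Hsp90ab1 FPKM in non-IR hearts and between 17.3% and 29.2% (median 21.8%) in IR hearts. Hsp90ab1 exceeded Hsp90aa1 by 9.33 to 15.7 times without IR and by 2.43 to 4.77 times after it. The constitutive form stayed the larger in each library. On the deposited scale both forms added similar amounts of transcript, since the smaller fold of Hsp90ab1 applied to a higher level. Scaling to total reads or to the upper quartile ended the call of Hsp90ab1, and the gains were not recomputed under either. Of a summed gain of 399.8 FPKM over the 10 members, 34.6% came from Hsp90ab1, 31.8% from Hsp90aa1 and 15.4% from Bag3. The summed FPKM of the 3 HSP90 genes was 465 to 524 in non-IR and 612 to 956 in IR hearts.

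**Figure D3:**
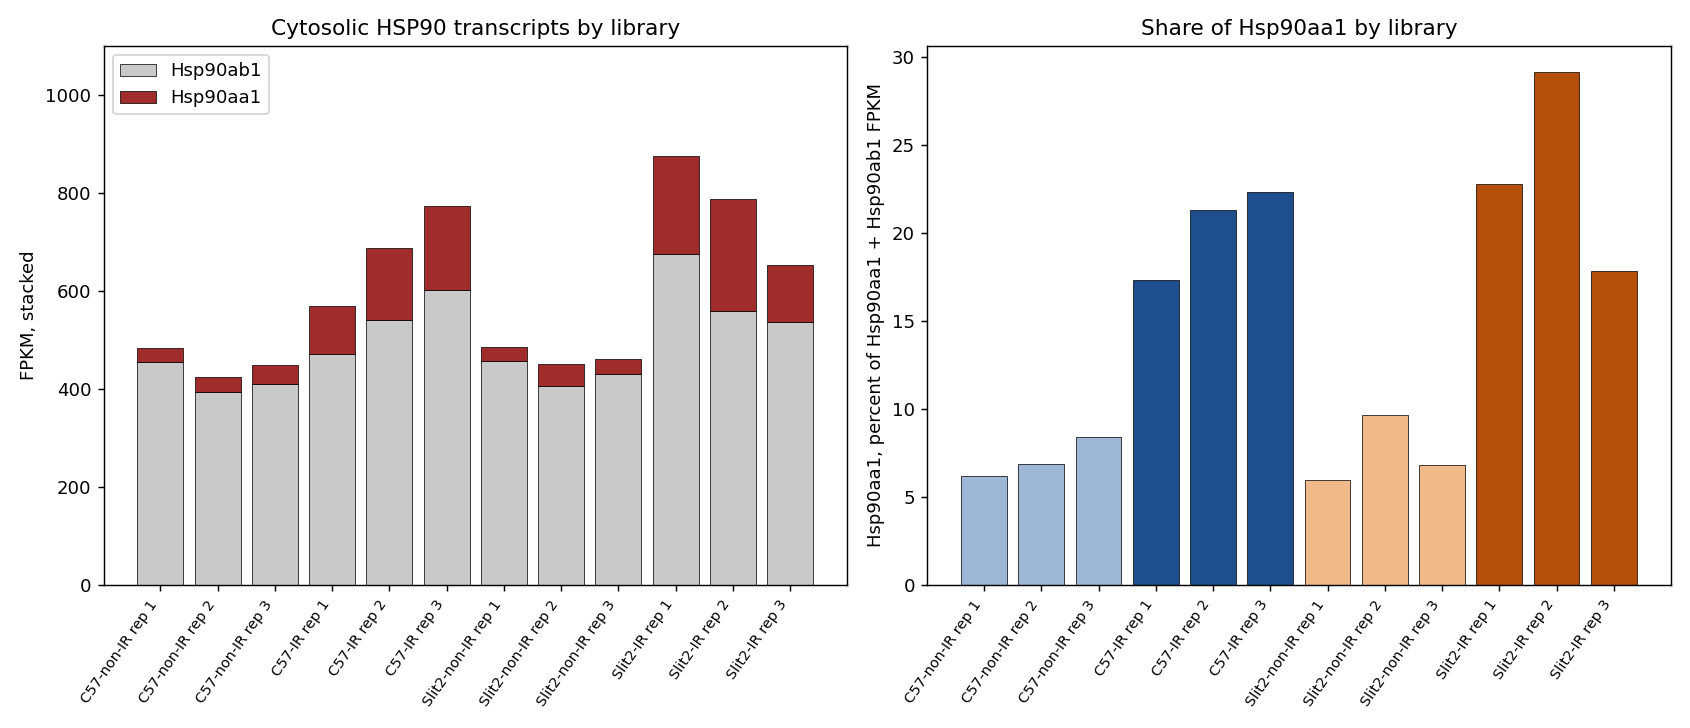
Left, FPKM of Hsp90ab1 and Hsp90aa1 stacked for each of the 12 libraries; right, the share of Hsp90aa1 in their sum, in percent. The share is at most 9.68% in the 6 non-IR libraries and at least 17.3% in the 6 IR libraries.

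Hsp90b1 (ENSMUSG00000020048, chromosome 10 from 86690209 to 86705509, minus strand) had 39.1, 41.3 and 52.0 FPKM in C57-non-IR and 42.7, 63.3 and 65.2 in C57-IR hearts. The Slit2-Tg hearts had 38.3, 36.8 and 44.5 FPKM without IR and 80.4, 58.9 and 67.2 after it. In C57BL/6J the groups overlapped through C57-IR replicate 1, while in Slit2-Tg hearts they did not overlap. The mean was 42.0 ± 5.55 without and 62.9 ± 12.3 FPKM with IR (SD, n = 6), a log2 difference of 0.56 (SE 0.13, limma adjusted p = 0.0362). It passed in 9 of 20 alternatives, was lost without any single library other than C57-non-IR replicate 3, C57-IR replicate 1 or Slit2-IR replicate 2 (highest adjusted p 0.0968 in limma over the alternatives), and was 0.50 without Slit2-IR replicate 1 (limma adjusted p = 0.0840). Within genotypes the difference was 0.35 (adjusted p = 0.634) in C57BL/6J and 0.77 (adjusted p = 0.0891) in Slit2-Tg hearts, and the latter passed without C57-IR replicate 1 (limma adjusted p = 0.0292). Hsp90b1 overlaps 3 other annotated genes, of which the most abundant had 2296 reads in all libraries against 53360 for Hsp90b1, and whether strand was used in counting is not given.

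Hsph1 (ENSMUSG00000029657, chromosome 5 from 149614287 to 149636376, minus strand), the HSP110 gene, had 6.31, 7.01 and 8.58 FPKM in C57-non-IR and 19.3, 24.2 and 34.7 in C57-IR hearts. The Slit2-non-IR values were 7.54, 8.53 and 6.21 FPKM and the Slit2-IR values 30.3, 32.4 and 21.7. The lowest IR heart exceeded the highest non-IR heart by more than the whole range of the non-IR hearts. The mean rose from 7.36 ± 1.04 to 27.1 ± 6.24 FPKM (SD, n = 6), 3.68-fold, with a log2 difference of 1.73 (SE 0.15, limma adjusted p = 0.000322), the seventh-lowest p. It was 1.67 (adjusted p = 0.0143) in C57BL/6J and 1.78 (adjusted p = 0.00756) in Slit2-Tg hearts in the same limma fit.

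Over both genotypes the calls of Hsp90aa1 and Hsph1 held in 20 of 20 alternatives, with adjusted p-values of at most 0.00231 in limma. Without Slit2-IR replicate 1 their differences were 2.14 and 1.70, both with a limma adjusted p of 0.00165. Within a genotype, 2 of 10 members were called upward, these 2, against 0.407% of genes in C57BL/6J and 0.446% in Slit2-Tg hearts. With 3 hearts a side these calls were less stable. In C57BL/6J hearts both were lost when any one of the C57-non-IR hearts, or C57-IR replicate 2 or 3, was left out, with adjusted p-values up to 0.0956 in limma over the alternatives, while the differences stayed between 1.88 and 2.28 for Hsp90aa1 and between 1.46 and 1.86 for Hsph1. In Slit2-Tg hearts both were lost without Slit2-non-IR replicate 3, Slit2-IR replicate 1 or Slit2-IR replicate 2, with limma adjusted p-values of at most 0.0516 and 0.0581. At an unadjusted p under 0.05 in limma, 5 members were higher in C57BL/6J (4.55% of genes) and 7 in Slit2-Tg hearts (6.15%). Groups did not overlap upward for 5 members in C57BL/6J (6.75% of genes) and for 7 in Slit2-Tg hearts (8.65%).

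Bag3 (ENSMUSG00000030847, chromosome 7 from 128523616 to 128546981, plus strand) encodes an HSP70 co-chaperone that in cardiomyocytes serves protein turnover at the Z-disc. Its FPKM was 90.6, 57.1 and 61.5 in C57-non-IR and 113, 126 and 117 in C57-IR hearts, and 85.6, 68.8 and 68.1 in Slit2-non-IR and 194, 149 and 102 in Slit2-IR hearts. The groups did not overlap, although Slit2-IR replicate 3 and C57-non-IR replicate 1 came close. The mean went from 72.0 ± 13.3 to 133 ± 33.8 FPKM (SD, n = 6), 1.86-fold, with a log2 difference of 0.87 (SE 0.16, limma adjusted p = 0.0123), called in 20 of 20 alternatives and 0.76 without Slit2-IR replicate 1 (limma adjusted p = 0.0241). In limma it did not pass within genotypes, at 0.78 (adjusted p = 0.203) in C57BL/6J and 0.95 (adjusted p = 0.0957) in Slit2-Tg hearts. With the replicate number as a block it passed in Slit2-Tg hearts (limma adjusted p = 0.0377), which made 3 members called there, and it passed as well without Slit2-IR replicate 3 (limma adjusted p = 0.0363). An overlapping gene had 290 reads in all libraries, against 66130 for Bag3.

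The other co-chaperones moved less. Stip1 (chromosome 19 from 7020696 to 7040026), whose product bridges HSP70 and HSP90, had 48.3, 42.1 and 48.0 FPKM in C57-non-IR and 58.6, 52.2 and 69.7 in C57-IR hearts, against 51.4, 50.9 and 41.3 in Slit2-non-IR and 73.7, 54.6 and 60.3 in Slit2-IR hearts. All IR values exceeded all non-IR values, with a log2 difference of 0.38 (95% interval 0.15 to 0.60, limma adjusted p = 0.0710) that was not called in any of 20 alternatives, where the lowest adjusted p in limma was 0.0510. Ahsa1 (chromosome 12 from 87266479 to 87273998), an activator of the HSP90 ATPase, lay between 14.3 and 17.5 FPKM without and between 16.5 and 21.0 with IR, a difference of 0.19 (95% interval 0.02 to 0.36, limma adjusted p = 0.235). Its IR and non-IR ranges overlapped. Fkbp4 (chromosome 6 from 128429735 to 128438677), the immunophilin FKBP52 of steroid receptor complexes, was second in abundance among the members without IR at 128 to 148 FPKM and had 130 to 178 FPKM with IR. Its difference was 0.12 (95% interval -0.07 to 0.31, limma adjusted p = 0.590). An increase of the size seen for Hsp90aa1, Hsph1 or Bag3 lay outside that interval.

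The heat shock factor transcripts were close to level over both genotypes. Hsf1 (chromosome 15 from 76477445 to 76500972) had 16.002, 12.9 and 14.8 FPKM in C57-non-IR and 14.03, 15.8 and 13.9 in C57-IR hearts, against 16.3, 13.1 and 15.3 in Slit2-non-IR and 20.7, 14.4 and 19.5 in Slit2-IR hearts. Slit2-IR replicates 1 and 3 stood above the other 10 libraries, and the IR difference over both genotypes was 0.13 (95% interval -0.08 to 0.35, limma adjusted p = 0.593). For Hsf1 it was 0.01 in C57BL/6J hearts (-0.30 to 0.31, limma adjusted p = 0.998). In Slit2-Tg hearts it was 0.26 (-0.05 to 0.57, limma adjusted p = 0.541), so a moderate rise is not outside that interval. Hsf2 (chromosome 10 from 57486385 to 57513135), which encodes a factor best known from development and germ cells, stayed between 1.22 and 1.58 FPKM, with a difference of 0.01 (95% interval -0.11 to 0.12, limma adjusted p = 0.976). At that level the 1 added before the log2 shrinks differences, so this interval is not comparable with those of more abundant members. By mean FPKM without IR the members ranked Hsp90ab1 (425), Fkbp4 (142), Bag3 (72.0), Stip1 (47.0), Hsp90b1 (42.0), Hsp90aa1 (33.4), Ahsa1 (16.03), Hsf1 (14.7), Hsph1 (7.36) and Hsf2 (1.36). The ranges of Stip1 and Hsp90b1, of Hsp90b1 and Hsp90aa1, and of Ahsa1 and Hsf1 overlapped between neighbours. After IR, Hsp90aa1 (161), Fkbp4 (155) and Bag3 (133) followed Hsp90ab1 with overlapping ranges. Hsph1 (27.1) then came before Ahsa1 (18.5) and Hsf1 (16.4) by its mean, also with overlapping ranges.

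Whether Slit2-Tg and C57BL/6J hearts differed in these genes was asked separately without and after IR. Because the transgenic line was founded from C57 × CBA F1 oocytes, the transgene and the background of the line cannot be told apart here. Between the Slit2-non-IR and C57-non-IR libraries, 0 of 10 members passed the adjusted threshold in limma (0.0394% of all genes did). An unadjusted p under 0.05 was reached by 0 members (3.19% of genes), and groups that did not overlap were seen for 0 (9.2%). The fitted differences ran from -0.14 (Hsp90b1) to 0.11 (Bag3). Between the Slit2-IR and C57-IR libraries the counts were again 0 adjusted (0.0459% of genes), 0 unadjusted (3.16%) and 0 without overlap (6.47%). Limma-voom on the recovered reads also called 0 members in both. After IR, 9 of 10 members were higher in the libraries labelled Slit2-Tg, with a median difference of 0.13 against 0.00 for all genes. Without Slit2-IR replicate 1, the library with high atrial markers, 7 of 10 were higher and the median was 0.05, and without C57-IR replicate 1 it was 7 of 10 and 0.04. Without C57-IR replicate 3 or Slit2-IR replicate 3 the median was 0.24 and 0.21. These signs are not independent, since the members were measured in the same 6 hearts and several vary together.

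The intervals show what was not detectable with 3 hearts a group. For Hsp90aa1 after IR the Slit2-Tg minus C57BL/6J difference was 0.36 with a 95% interval of -0.23 to 0.95, so that a near-doubling is not outside it. For Hsph1 it was 0.13 (-0.34 to 0.59) and for Bag3 0.28 (-0.22 to 0.77). Without Slit2-IR replicate 1 these 3 differences were 0.27, 0.06 and 0.06. The lowest p of the members belonged to Hsf1, whose mean FPKM was 18.2 ± 3.36 for Slit2-IR against 14.6 ± 1.09 for C57-IR (SD, n = 3), a difference of 0.29 (95% interval -0.02 to 0.59, limma adjusted p = 0.9996). Hsf2 had the tightest interval, -0.23 to 0.10 around -0.06. Its mean FPKM was only 1.32 for Slit2-IR and 1.42 for C57-IR. At that level the 1 added before the log2 shrinks differences, so the narrow interval does not mean a tighter bound on its fold. The interaction, which asks whether the IR response itself differed by genotype, was passed by 0 of 10 members in limma and by 0.0% of all genes, also in limma-voom, and by 0 members at an unadjusted p under 0.05 (1.86% of genes). Its largest member value was 0.42 for Hsp90b1 (95% interval -0.14 to 0.97, limma adjusted p = 0.9998). For Hsp90aa1 it was 0.27 (-0.56 to 1.11) and for Hsph1 0.10 (-0.56 to 0.76). Without Slit2-IR replicate 1 the interaction was 0.30 for Hsp90b1, 0.18 for Hsp90aa1 and 0.04 for Hsph1.

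**Figure D4:**
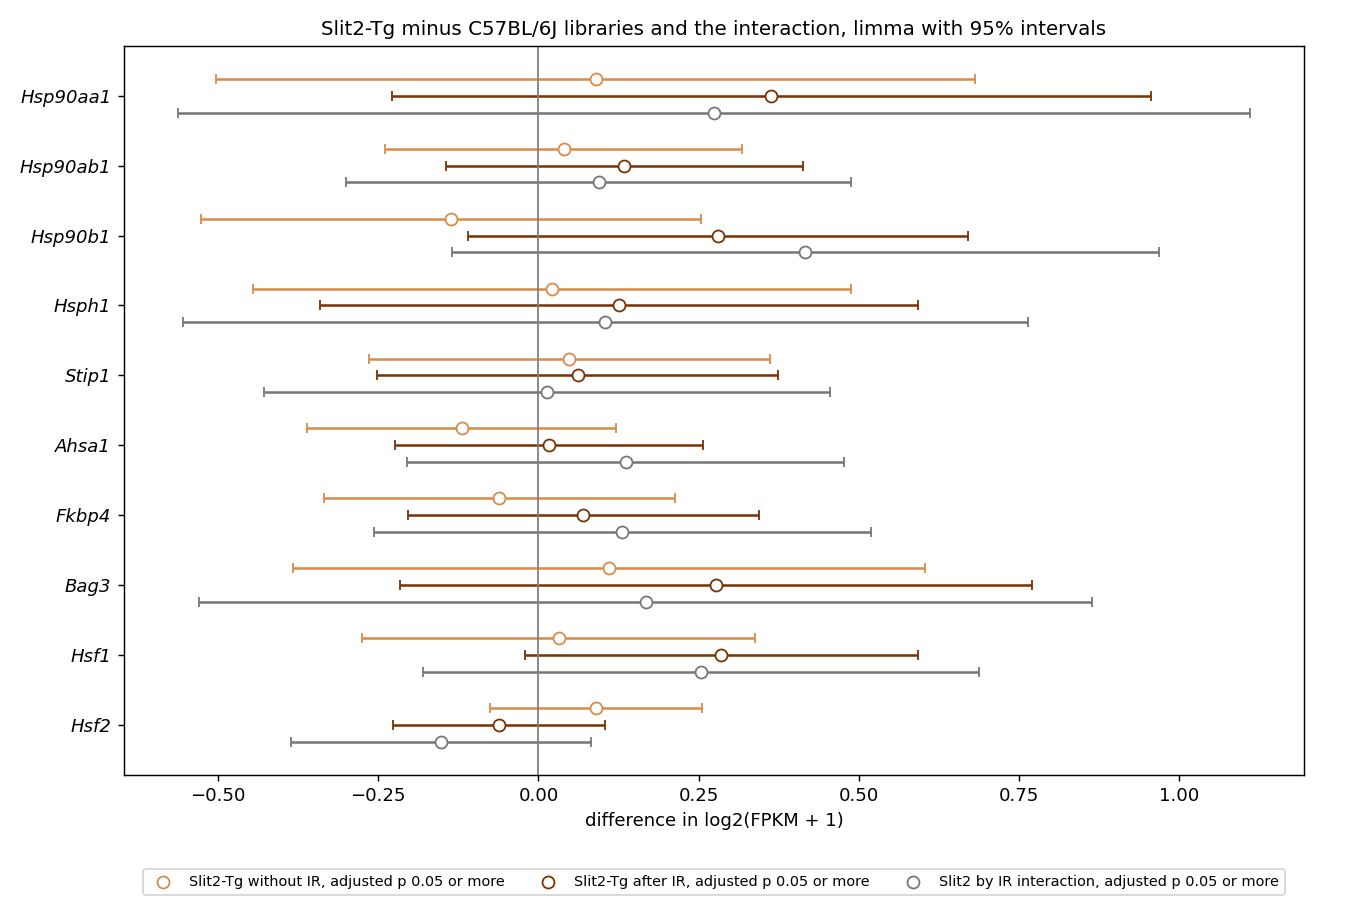
Difference in log2(FPKM + 1) between Slit2-Tg and C57BL/6J libraries without IR and after IR, and their interaction with IR (horizontal axis), with 95% intervals from limma, for each member. Every interval includes 0, from the wide ones of Hsp90aa1 to those of Hsf2, which its low FPKM narrows on this scale.

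Hsp90aa1 and Hsph1 varied together from heart to heart, not only between conditions. After the group means were removed, their log2(FPKM + 1) values correlated at r = 0.89 over the 12 libraries, and among the 6 IR hearts at r = 0.91. Stip1 and Ahsa1 gave r = 0.94 within groups, and Hsp90ab1 correlated with Ahsa1 at 0.77 and with Bag3 at 0.74. Hsp90aa1 with Fkbp4 gave -0.36 and with Hsf1 -0.40. The lowest member pairs within groups were Hsf2 with Hsp90ab1 at -0.78 and Hsf2 with Fkbp4 at -0.67. These pairs were named after their values were seen, and pairs of other genes were not set beside them. All these genes share the same libraries and their depth, and the values are descriptions. Over the 12 libraries, which fall into an IR and a non-IR cluster, likeness was ranked among the tested genes outside the members. Most like Hsp90aa1 were Dnajb1 (r = 0.99), Tnfaip3 (0.98) and Arc (0.98). Those most like Hsph1 were Hspa1b (0.98), Dnajb1 (0.97) and Hspa1a (0.97), HSP40 and HSP70 genes of the heat shock response. Hsp90aa1 and Hsph1 gave r = 0.990 with each other over the 12 libraries, above all of these genes. Within the 6 IR hearts, Arc gave r = 0.92, Dnajb1 0.89 and Tnfaip3 0.84 with Hsp90aa1, of which only Dnajb1 is a chaperone gene. With Hsph1, Hspa1b gave 0.82, Dnajb1 0.64 and Hspa1a 0.61 there.

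Hsp90b1 had different neighbours. The 3 genes most like it were Manf (r = 0.97), Pdia3 (0.96) and Pdia6 (0.96), which encode endoplasmic reticulum proteins, and within the 6 IR hearts they gave 0.97, 0.93 and 0.93. Bag3 was most like Hspb1 (0.96, and 0.93 within IR hearts), a small heat shock protein gene, followed by Phlda1 (0.94) and Zfp622 (0.94). Hsp90ab1 was most like Psd (0.95), B4galt5 (0.94) and Srf (0.94), and Stip1 most like Ahsa2 (0.94), the paralogue of Ahsa1, then Tnc (0.89) and Cdr2l (0.87). Ahsa1 was nearest to Cdr2l (0.89), Tnc (0.88) and Snx3 (0.88), Fkbp4 to Nudt18 (0.92), Stx6 (0.91) and Plod1 (0.90), Hsf1 to Git1 (0.94), Lhpp (0.93) and A330058E17Rik (0.92), and Hsf2 to Polg2 (0.88), Scamp1 (0.87) and Gm6685 (0.86). The members were left out of this ranking. Ahsa1 with Stip1 gave 0.90, above every gene named for Ahsa1 and above Tnc and Cdr2l for Stip1. Each gene named is among the 3 highest of the tested genes outside the members, so high values arise by selection.

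The wider chaperone network was read from lists of partner genes. Of 17 textbook targets of HSF1 outside the members, 9 rose over both genotypes in limma at an adjusted p under 0.05 (2.34% of all genes), and 17 of 17 were higher, with a median difference of 0.70. Hspa1b went from 3.12 to 11.9 FPKM without IR (median 3.39) to 380 to 891 with IR (median 632), a log2 difference of 6.91 (SE 0.27, limma adjusted p = 2.2e-07), and Hspa1a by 5.94. Reads of Hspa1a and Hspa1b are uncertain, because they are near-identical copies. Dnajb1, which activates the HSP70 ATPase, rose by 3.47, Hspb1 by 1.78 and Dnaja1 by 1.57. Dnajb4 rose by 1.04, Serpinh1, the collagen chaperone HSP47, by 0.95 and Hspa8, the constitutive HSP70, by 0.82. Of these, Serpinh1 kept its call in 10 of 20 alternatives, being lost when C57-IR replicate 2, replicate 1 or 2 of either non-IR group or any Slit2-IR heart was left out (highest adjusted p 0.0783 in limma), and the other 7 in 20 of 20. The ninth, Hspe1, named after its values were seen, had 0.45 (limma adjusted p = 0.0444) and was called in 6 of 20 alternatives, being lost without any single library other than C57-IR replicate 1 (highest adjusted p 0.118 in limma). Without Slit2-IR replicate 1 the differences were 6.84 for Hspa1b, 5.80 for Hspa1a, 3.40 for Dnajb1, 1.66 for Hspb1, 1.56 for Dnaja1, 1.04 for Dnajb4 and 0.81 for Hspa8, all still called, and 0.99 for Serpinh1 and 0.49 for Hspe1, which were not (limma adjusted p = 0.0509 and 0.0544). Within genotypes limma called 3 of 17 in C57BL/6J hearts (Hspa1a, Hspa1b and Dnajb1; 0.407% of all genes) and 4 in Slit2-Tg hearts (the same 3 and Hspb1; 0.446%). With the replicate block 9 were called in Slit2-Tg hearts, where the calls among all genes, in either direction, went from 80 to 202. Dnajb1 in C57BL/6J lost its call without any one C57-non-IR heart or C57-IR replicate 2 or 3 (highest adjusted p 0.0704 in limma), and Hspb1 in Slit2-Tg hearts without C57-non-IR replicate 3, any one Slit2-non-IR heart or Slit2-IR replicate 1 or 2 (highest adjusted p 0.111 in limma). Promoters of 14 of the 17 were in the table, and 9 held the pair of heat shock units and 3 (Chordc1, Hspd1 and Hspe1) the run of 3.

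Further genes of the HSP90 machine were read in the same way. Of 26 listed paralogues and co-chaperones 25 were tested (Aipl1 was not), and 0 passed over both genotypes in limma or in limma-voom (2.34% of all genes rose in limma), with 18 of 25 higher and a median difference of 0.06. At an unadjusted p under 0.05 in limma, 5 were higher (7.93% of all genes) and 2 lower (7.97%). These 7, named after their values were seen, were Ahsa2 (0.32), Cacybp (0.29), Unc45a (0.27), Ptges3 (0.23) and Unc45b (0.22) upward and Fkbp5 (-0.87) and Nudcd2 (-0.17) downward. Fkbp5, an immunophilin and a relative of Fkbp4, passed the adjusted threshold with the replicate block. Of 10 other HSP110 and HSP70 exchange factor genes, 0 passed in limma or limma-voom (2.34% of all genes rose in limma). Hyou1 (0.38), the HSP110 relative of the endoplasmic reticulum, was the 1 of 10 higher at an unadjusted p under 0.05 (7.93% of all genes). Of the other heat shock factors and HSF1 binding proteins 3 were tested (Hsf4, Hsbp1 and Hsbp1l1), with 0 called by either tool and 0 at an unadjusted p under 0.05, while Hsf3 and Hsf5 fell under the filter.

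Of 15 listed genes of the endoplasmic reticulum, the compartment of GRP94, 3 rose over both genotypes in limma (2.34% of all genes). At an unadjusted p under 0.05 in limma, 11 of 15 were higher (7.93%), and the median difference was 0.41. The list, labelled GRP94 partners in the plot of the lists, covers the compartment broadly, and binding to GRP94 was not measured. Hspa5, the HSP70 of this compartment, was at 87.7 to 111 FPKM (median 94.4) without IR and at 121 to 175 (median 169) with IR, a log2 difference of 0.75 (SE 0.10, limma adjusted p = 0.00246). Its ranges did not overlap. Manf rose by 0.74 (limma adjusted p = 0.0102) and Calr, calreticulin, by 0.53 (limma adjusted p = 0.0410). Hspa5 and Manf were called in 20 of 20 alternatives and Calr in 9, its call being lost without any single library other than C57-IR replicate 1, Slit2-non-IR replicate 3 or Slit2-IR replicate 2 (highest adjusted p 0.107 in limma). Without Slit2-IR replicate 1 the differences were 0.74 for Hspa5 (limma adjusted p = 0.00841), 0.68 for Manf (0.0278) and 0.46 for Calr (0.0901). In C57BL/6J hearts 0 of 15 passed in limma or limma-voom (0.407% of all genes in limma), with 4 higher at an unadjusted p under 0.05 (4.55%). In Slit2-Tg hearts 2 of 15 passed (0.446% of all genes), Hspa5 at 0.86 and Manf at 1.01. Hspa5 lost that call without C57-non-IR replicate 2, any one Slit2-non-IR heart or Slit2-IR replicate 1 or 2, and Manf without any single library other than C57-IR replicate 1 or 2, with limma adjusted p-values up to 0.119 and 0.163. The difference between genotypes was not called for any of the 15 in the interaction, in limma or limma-voom, and for 0 at an unadjusted p under 0.05. Of the 13 listed genes with a promoter in the table, 6 (Calr, Canx, Creld2, Dnajc3, Hspa5 and Pdia6) held the element shown above for Hsp90b1, and 0 held a pair of heat shock units. Among the HSF1 targets 0 of 14 promoters held the endoplasmic reticulum element.

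Of 9 partners of BAG3 in protein quality control at the Z-disc, 9 were higher after IR, with a median of 0.24, and 1, Hspa8, passed in limma (2.34% of all genes). Hspb8, the small heat shock protein that binds BAG3, differed by 0.24 (limma adjusted p = 0.154), and Flnc, filamin C, a client of this machinery, by 0.61 (limma adjusted p = 0.223). Hspb6, another small heat shock protein gene, differed by 0.31 (limma adjusted p = 0.174). These 3 were higher at an unadjusted p under 0.05, as was Hspa8, 4 of 9 in all against 7.93% of all genes, and were named after their values were seen. The lists share genes, Hspa8, Hspb8 and Cryab being also listed HSF1 targets and Hyou1 also on the endoplasmic reticulum list. Chordc1 and Cacybp of the HSP90 list and Hspa4l of the HSP110 list are listed HSF1 targets as well. Stub1 is on both the HSP90 and the BAG3 list, so the lists are not independent. In the genotype comparisons without and after IR and in the interaction, 0 genes of the 6 lists passed in limma or limma-voom. At an unadjusted p under 0.05 in limma there was 1, Rpap3, from the 25 HSP90 paralogues and co-chaperones, lower in Slit2-IR hearts. Among all tested genes, that level was reached by 3.19% without IR, 3.16% after IR and 1.86% in the interaction.

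**Figure D5:**
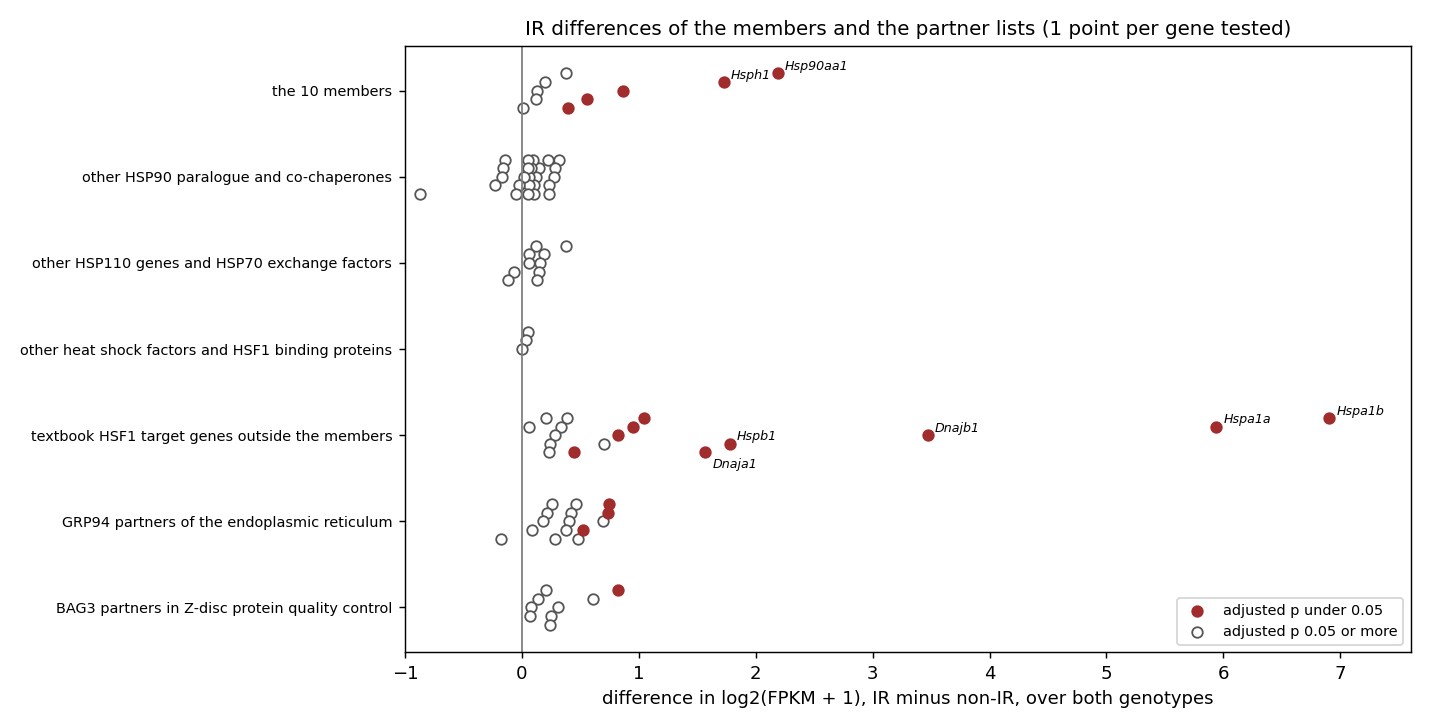
IR minus non-IR difference in log2(FPKM + 1) over both genotypes (horizontal axis) for the 10 members and the genes of the 6 partner lists, 1 point per tested gene, filled where the limma adjusted p is under 0.05. The HSF1 targets reach 6.91, while none of the 25 other HSP90 co-chaperones is filled.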

How the data were processed

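RNA from 12 mouse hearts was sequenced by the authors as paired ends on an Illumina HiSeq from NEBNext Ultra libraries. HISAT2 and mm10 are named in the submitters' processing notes, while the counting tool, its annotation release and its use of strand are not given in the sources used here. The authors deposited FPKM per gene and library, with gene coordinates and lengths, and no counts. FPKM times gene length was a whole multiple of 1 step per library for 100% of values (tolerance 0.02 reads), which recovered the reads behind each value; 222 genes had a blank name, and 0 columns of values were left unused.

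Genes with at least 10 reads, scaled to the median library, in 3 libraries and at least 15 reads in all were tested with limma 3.58.1 (R 4.3.3) on log2(FPKM + 1), 4 groups in one fit and 6 contrasts, with Benjamini-Hochberg adjustment over all genes tested and a threshold of 0.05. A fold on this scale understates the change of low genes. With 3 against 3 hearts an exact permutation test cannot go below p = 0.1, a limit that does not apply to 6 against 6 over both genotypes. Only the fit across genes was used for all contrasts. Nothing in the labels says how the 3 hearts of a group were spread over litters or days, and p-values measure the spread between these samples. The code was tested on simulated data. Tables and plots were made with pandas 2.3.3 and matplotlib 3.10.9.

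The members and partner lists were chosen with earlier results of these data known. From the lists, genes with an adjusted p under 0.05 in any contrast were named, at most 8 a list by lowest p. For each member the 3 most correlated tested genes outside the members were named. Replicate numbers recur in each group, and deviations from the group means of same-numbered hearts correlated above 0.1 in all 3 pairs for IR in Slit2-Tg hearts (0.143 to 0.294) and for Slit2-Tg after IR (0.154 to 0.362), though no label ties the numbers to a litter or day.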

Additional observations from a re-analysis of the deposited data

How the results depend on the processing

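The 60 member differences, of which 9 were called in the main fit, were recomputed under 9 other settings and with each of the 12 libraries left out. Only those 9 could lose a call. Of 1240 values, 1195 kept their side of the threshold, 42 lost a call, 3 gained one and 0 called values changed sign, while 44 values not called did. For the genotype comparisons and the interaction no call changed. In C57BL/6J hearts the 2 members called after IR became 0 with no filter beyond 1 read, 1 with only the compared libraries in the fit, and 0 to 2 with a library left out. In Slit2-Tg hearts the 2 became 3 with the replicate block and 0 to 3 with a library left out. Over both genotypes the 5 became 3 with no filter or with scaling to total reads, 4 with scaling to the upper quartile, and 3 to 5 with a library left out. The 5 without overlap became 3 with total reads, 4 with the upper quartile and 5 to 6 with a library left out. Scaling to total reads ended the calls of both Hsp90ab1 and Hsp90b1, scaling to the upper quartile that of Hsp90ab1. The cause was not tested.

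With the replicate block, genes called among all tested went from 70 to 174 in C57BL/6J hearts, where same-numbered hearts did not all correlate above 0.1 (0.0833 to 0.295), from 80 to 202 in Slit2-Tg hearts and from 532 to 773 over both. Limma-voom on the recovered reads called 32, 121 and 590. The block changed no other member's call. Among the lists it called 5 HSF1 targets and Hspa5 in C57BL/6J hearts, and added Pdia3 and Fkbp5 (lower) over both genotypes, while limma-voom called 6 HSF1 targets in Slit2-Tg hearts.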
